A study of Mus musculus with 9 samples.

Results

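Immunoglobulin light chain variable (V) segments were followed in lung RNA of 9 mice. They were chosen by name, as every gene of the deposited table whose symbol starts with *Igkv* or *Iglv* and a number, which gave 121 of the table's 34638 genes. Of these, 118 were kappa segments and 3 were lambda segments, and 21 were annotated as pseudogenes. Lungs came from wild-type C57BL/6 mice in 3 groups of 3. Control mice were challenged with PBS, and IL-33 mice with recombinant mouse IL-33 at 0.5 µg per mouse into the trachea on each day from day 0 to day 3. IL-33+LM8 mice received the same IL-33 challenges after intraperitoneal LM8, an inhibitor of MyD88, the adaptor of the IL-33 receptor, at 10 mg/kg. The study's methods describe the IL-33 model with female mice aged 6 to 8 weeks and lungs taken on day 4, and do not describe the LM8 group. No group received LM8 without IL-33, so the comparisons do not separate an effect of LM8 alone from one on the response to IL-33.

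An antibody light chain is encoded by 1 V segment joined to a J segment and a constant region, and a B cell as a rule keeps 1 productive light chain. The V segment encodes most of the antigen-binding domain, up to the start of the third complementarity-determining region (CDR3), the loop that spans the V-J joint. Light chain transcripts are present in B cells and reach very high levels in antibody-secreting plasma cells, so in whole lung the V segments report how much each segment is used in the RNA of B-lineage cells. Many clones use the same segment, and gene counts do not separate them. Lung holds resident and recirculating B cells, among them innate-like B-1 cells, and plasma cells. In bulk tissue, more cells of a type and more RNA per cell cannot be told apart.

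The germline 3′ ends of 7 segments that lead the results are shown first, because the segment names alone do not show which of them are close copies. Each line is the last 90 bases of the GENCODE M21 transcript in the sense direction, taken by transcript identifier. Each transcript has 2 exons, a leader exon and a V exon, and the 3′ end lies in the V exon. Capitals mark the germline part of CDR3, the bases after the codon of the conserved cysteine.
Igkv14-126: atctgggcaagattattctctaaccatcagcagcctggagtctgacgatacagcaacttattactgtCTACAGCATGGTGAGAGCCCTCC
Igkv4-91: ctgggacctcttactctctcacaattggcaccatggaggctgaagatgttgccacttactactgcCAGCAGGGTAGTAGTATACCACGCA
Igkv12-89: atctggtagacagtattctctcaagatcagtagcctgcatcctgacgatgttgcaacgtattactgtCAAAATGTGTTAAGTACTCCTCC
Igkv1-110: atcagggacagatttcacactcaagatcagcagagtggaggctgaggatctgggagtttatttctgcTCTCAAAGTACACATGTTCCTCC
Igkv1-117: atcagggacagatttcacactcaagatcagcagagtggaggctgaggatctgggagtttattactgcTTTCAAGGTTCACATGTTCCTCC
Iglv1: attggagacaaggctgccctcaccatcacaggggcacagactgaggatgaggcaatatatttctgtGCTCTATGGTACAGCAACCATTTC
Iglv2: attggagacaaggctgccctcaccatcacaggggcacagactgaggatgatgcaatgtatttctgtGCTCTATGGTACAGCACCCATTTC

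In GRCm38, *Igkv14-126* lies at chr6:67896172-67896642 on the plus strand, *Igkv4-91* at chr6:68768555-68769103 on the minus strand and *Igkv12-89* at chr6:68834846-68835307 on the minus strand. These 3 differ clearly from each other: over their last 250 bases, *Igkv14-126* and *Igkv12-89* were 73.5% identical, and *Igkv14-126* and *Igkv4-91* 67.2%, and no pair among the 3 had a stretch of 31 bases in common. *Igkv1-110* (chr6:68270485-68271267, plus strand) and *Igkv1-117* (chr6:68121046-68121827, plus strand) were 96.4% identical, and *Iglv1* (chr16:19085017-19085500, minus strand) and *Iglv2* (chr16:19260401-19260859, minus strand) 97.2%. Reads can fall on either copy of such a pair, so the split within these pairs is uncertain. Across the 121 segments, 113 shared at least 1 stretch of 31 bases with another segment and 70 shared a stretch of 75 bases. Among the segments on which most of the results turn, *Igkv14-126* shared 5.79% of its 31-base stretches, *Igkv4-91* 10.98% and *Igkv12-89* 2.92%, while *Igkv1-117* shared 62.6%.

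Total counts on genes ranged from 53877700 to 90607200 per library. Control replicates 1 and 3 stood apart in *Rag1*, the recombinase that cuts V and J segments. It had 159, 4 and 122 counts in the 3 control libraries, and at most 8 in any other library. *Rag2* had 36, 4 and 12 counts in the controls and 0 in the other libraries. *Dntt*, which adds bases at heavy chain joints and in T cell receptors, had 68, 32 and 92 counts in the controls and between 13 and 66 in the other libraries. Control replicate 1 was thus close to the highest of these. *Vpreb1* (28, 23 and 7 counts in the controls) and *Vpreb3* (903, 1071 and 1084), of the surrogate light chain list, did not split this way. The summed level of 6 genes listed as thymocyte markers was 20.8 to 23.0 FPKM, the deposited level scaled for gene length and depth, in the controls. It was 18.7 to 23.7 in the IL-33 mice and 18.0 to 25.04 in the IL-33+LM8 mice, so the groups overlapped. *Tcf7* alone was at 13.4 to 14.3 FPKM in the controls, and *Ptcra*, also listed, was not measured. This sum therefore could not show a small number of thymocytes, and the source of *Rag1* was not tested. The segments in which control replicates 1 and 3 also stood apart are described further on.

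Light chain V RNA was higher in IL-33 mice, and nearer the control level in mice that also received LM8. Summed over all 121 segments, the libraries held 7420, 7068 and 8582 counts in the control mice. The IL-33 libraries held 39138, 36903 and 34893 counts, and the IL-33+LM8 libraries 8840, 10244 and 13436. The 3 groups did not overlap in any pair. As CPM, counts scaled to library size with TMM factors, the sum was 116 ± 3.20 (SD, n = 3) in control, 617 ± 30.1 in IL-33 and 155 ± 10.7 in IL-33+LM8 mice. The ratio of the group means was 5.31 for IL-33 against control, and the IL-33 mean was 3.98 times that of IL-33+LM8. IL-33+LM8 mice remained 1.33 times the control mean, and their lowest library, at 148 CPM, lay above the highest control, at 119.7 CPM. On the FPKM scale the IL-33 sum was 5.41 times the control sum. These sums are descriptions over a set of genes and were not tested.

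More segments were detected in IL-33 libraries, and most of that difference was absent at equal depth. A segment was called detected above 3 counts in a library, a limit that covers counting error only. It was passed by 76, 82 and 82 segments in the controls, 100, 101 and 98 in the IL-33 mice and 87, 85 and 94 in the IL-33+LM8 mice. When each library was reduced by calculation to the smallest V total, 7068 counts, the expected numbers were 75.6 to 82.0 in control, 83.2 to 86.5 in IL-33 and 83.6 to 88.6 in IL-33+LM8 libraries. The difference between the means of IL-33 and control libraries thereby went from 99.7 against 80.0 to 85.2 against 79.5. Over all libraries, 66 segments exceeded 3 counts in all 9, 108 did so in at least 1, and 13 in none. The pseudogenes as a group held at most 0.484% of V counts in any library.

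IL-33 libraries were dominated by a few segments although they held the most. The most abundant segment was *Igkv14-126* in all 3 IL-33 libraries, with 16.8% (95% Wilson interval 16.4 to 17.2), 11.7% (11.3 to 12) and 21.9% (21.5 to 22.3) of the V counts. No single segment led the controls: *Igkv1-110* led replicate 1 with 7.05% (6.49 to 7.65), *Iglv1* led replicate 2 with 11.1% (10.4 to 11.9) and *Igkv1-117* led replicate 3 with 8.84% (8.26 to 9.46). Among IL-33+LM8 mice, *Igkv12-89* led replicates 1 and 3 with 17.6% (16.8 to 18.4) and 10.0% (9.55 to 10.6), and *Igkv1-110* led replicate 2 with 8.66% (8.13 to 9.22). These intervals cover counting error only. The lowest IL-33 share thus lay just above the highest control share, and the IL-33+LM8 shares overlapped with both groups. These shares count close copies apart, whose split is uncertain. *Igkv1-110* and *Igkv1-117* together held 13.4% to 13.8% in the controls, more than any single segment there. *Iglv1* and *Iglv2* together held 16.5% in IL-33 replicate 2, more than *Igkv14-126*. In IL-33+LM8 replicate 3, *Igkv1-110* and *Igkv1-117* together exceeded *Igkv12-89*. Neither pair exceeded the leader in IL-33 replicates 1 and 3 or IL-33+LM8 replicate 1.

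The inverse Simpson index, the number of equally abundant segments that would give the same dominance, was 31.7, 24.98 and 30.4 in the controls. It was 18.0, 22.3 and 13.4 in the IL-33 mice, all below the controls, and 19.7, 33.7 and 30.4 in the IL-33+LM8 mice, where replicate 1 lay among the IL-33 values. Between 6 and 8 segments made up 50% of the V counts in IL-33 libraries, between 10 and 12 in control and between 9 and 14 in IL-33+LM8 libraries. The index was also computed without *Igkv14-126*, *Igkv4-91* and *Igkv12-89*, segments singled out after their values were seen for their levels in the treated mice. Leaving out abundant segments raises the index of the libraries they are abundant in by construction, so these values are a description. Without these 3, it was 27.2, 23.9 and 29.5 in IL-33 libraries and 30.5, 23.4 and 28.5 in control libraries, which overlap, and 32.5, 30.97 and 33.7 in IL-33+LM8 libraries. The summed V level of the remaining 118 segments was still 3.97 times as high with IL-33 as in control mice.

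**Figure D1:**
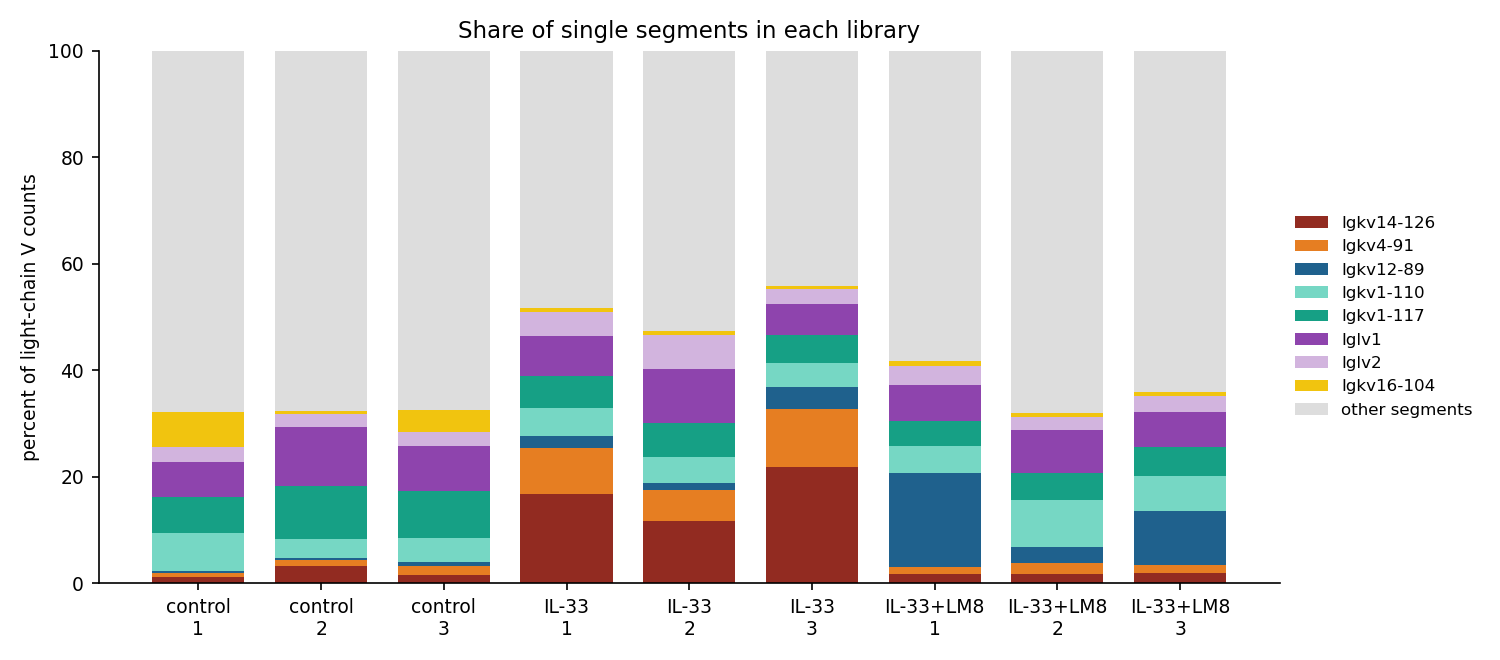
Stacked bars give the percent of light chain V counts held by 8 segments in each library; the grey part is every other segment. Igkv14-126 and Igkv4-91 together hold 17.5% to 32.7% in the IL-33 libraries and at most 4.30% elsewhere, Igkv12-89 is broad in IL-33+LM8 replicates 1 and 3, and Igkv16-104 in control replicates 1 and 3.

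Composition differed more between groups than between most libraries of a group. The share of V counts that would have to move to another segment to make 2 libraries alike was 13.2% to 25.8% within the IL-33 group and 29.0% to 41.2% between IL-33 and control libraries. It was 14.5% to 25.2% within the IL-33+LM8 group and 28.2% to 38.1% between IL-33+LM8 and IL-33 libraries. The control libraries were the least alike, with 16.8% to 32.7%, the highest value being that of replicates 1 and 2. Between IL-33+LM8 and control libraries it was 23.2% to 32.6%, which lies within the range found among the controls.

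IL-33 was compared with control segment by segment, to ask whether the rise was shared. Of the 121 segments, 84 averaged 0.5 FPKM or more across the 9 mice and were tested, and the other 37 had at most 39 counts in any library and together at most 0.975% of V counts. A gene was called where the quasi-likelihood F test of edgeR gave a p below 0.05 after Benjamini-Hochberg adjustment across all tested genes, and the log2 fold change was 1 or more in either direction. Of the 84 tested segments, 66 were called higher in IL-33 mice, where 10.8% of all 16831 genes tested were, and 0 were called lower, where 6.24% of all genes were. The count of lower segments was also 0 at an unadjusted p under 0.05, with DESeq2 and with limma. By FPKM, every IL-33 library lay above every control library for 72 of the 84. The share of all genes tested with such a separation was not computed, so this and the like counts below are descriptions only. The median log2 fold change of the tested segments was 2.20, with quartiles of 1.54 and 2.73, against -0.0053 over all genes tested. Of the 84, 8 had passed the filter only through their level in the IL-33 mice, 7 of them among those called, so these numbers describe the tested segments and not all 121. Without them, 59 of 76 were called higher, with a median of 2.12.

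*Igkv14-126* rose the most among the abundant segments. It had 90, 228 and 135 counts in the control mice, 6572, 4306 and 7638 in the IL-33 mice and 155, 183 and 267 in the IL-33+LM8 mice. The IL-33 libraries stood far above all others, while the other groups overlapped. Its rank by counts went from 26, 8 and 19 in the controls to 1 in each IL-33 library. The log2 fold change of IL-33 against control was 5.50 (standard error, SE, 0.42; adjusted p = 3.98e-05 by edgeR), a 45.3-fold difference in mean FPKM. With LM8 it was lower than with IL-33 by a log2 fold change of -5.20 (SE 0.27, adjusted p = 5.5e-05), and against control the value was 0.31 (SE 0.35, adjusted p = 0.553).

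*Igkv4-91* followed the same course at a lower level. Its counts were 53, 76 and 149 in control, 3393, 2159 and 3781 in IL-33 and 110, 197 and 194 in IL-33+LM8 libraries. The log2 fold change was 5.25 (SE 0.39, adjusted p = 3.23e-05) for IL-33 against control and -4.46 (SE 0.32, adjusted p = 0.000165) for IL-33+LM8 against IL-33. Its levels in IL-33+LM8 and control mice overlapped, with a log2 fold change of 0.82 (SE 0.37, adjusted p = 0.14). The ratio of *Igkv14-126* to *Igkv4-91* counts was 1.94, 1.99 and 2.02 in the 3 IL-33 libraries, although their joint share ranged from 17.5% to 32.7%. In the other 6 libraries the ratio ranged from 0.91 to 3.0. Both segments are known from B-1a cells that bind phosphatidylcholine, where *Igkv14-126* is typically paired with the heavy chain segment *Ighv11-2* and *Igkv4-91* with *Ighv12-3*.

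Both heavy chain segments were therefore looked up, after the light chain values had been seen. *Ighv11-2* had 29, 4 and 22 counts in control, 3860, 2310 and 4048 in IL-33 and 99, 88 and 112 in IL-33+LM8 libraries. *Ighv12-3* had 18, 10 and 11 counts in control, 1783, 1143 and 2214 in IL-33 and 16, 53 and 36 in IL-33+LM8 libraries. For both, as for their light chain partners, IL-33 replicate 2 was the lowest of the IL-33 libraries. Bulk counts do not show which heavy and light chains are paired in a cell.

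*Igkv12-89* also rose with IL-33 but differed from the other leading segments in the LM8 group. It had 32, 24 and 57 counts in control, 887, 476 and 1429 in IL-33 and 1556, 324 and 1350 in IL-33+LM8 libraries. IL-33 and IL-33+LM8 libraries overlapped and both lay above every control. The log2 fold change was 4.83 (SE 0.52, adjusted p = 0.000211) for IL-33 against control, and 4.78 (SE 0.62, adjusted p = 0.00165) for IL-33+LM8 against control. IL-33+LM8 against IL-33 gave -0.06 (SE 0.60, adjusted p = 0.957), a standard error too wide to show that the levels are alike. Its share of V counts was 17.6%, 3.16% and 10.0% in the IL-33+LM8 libraries. The heavy chain segment *Ighv1-64*, also looked up after seeing values, had 2282, 211 and 1788 counts in the same libraries, against 177 to 207 in control and 484 to 583 in IL-33 libraries. Its rise with IL-33 was smaller than that of *Igkv12-89* (log2 fold change 1.60, SE 0.15). Whether *Ighv1-64* is paired with *Igkv12-89* in any cell was not tested.

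**Figure D2:**
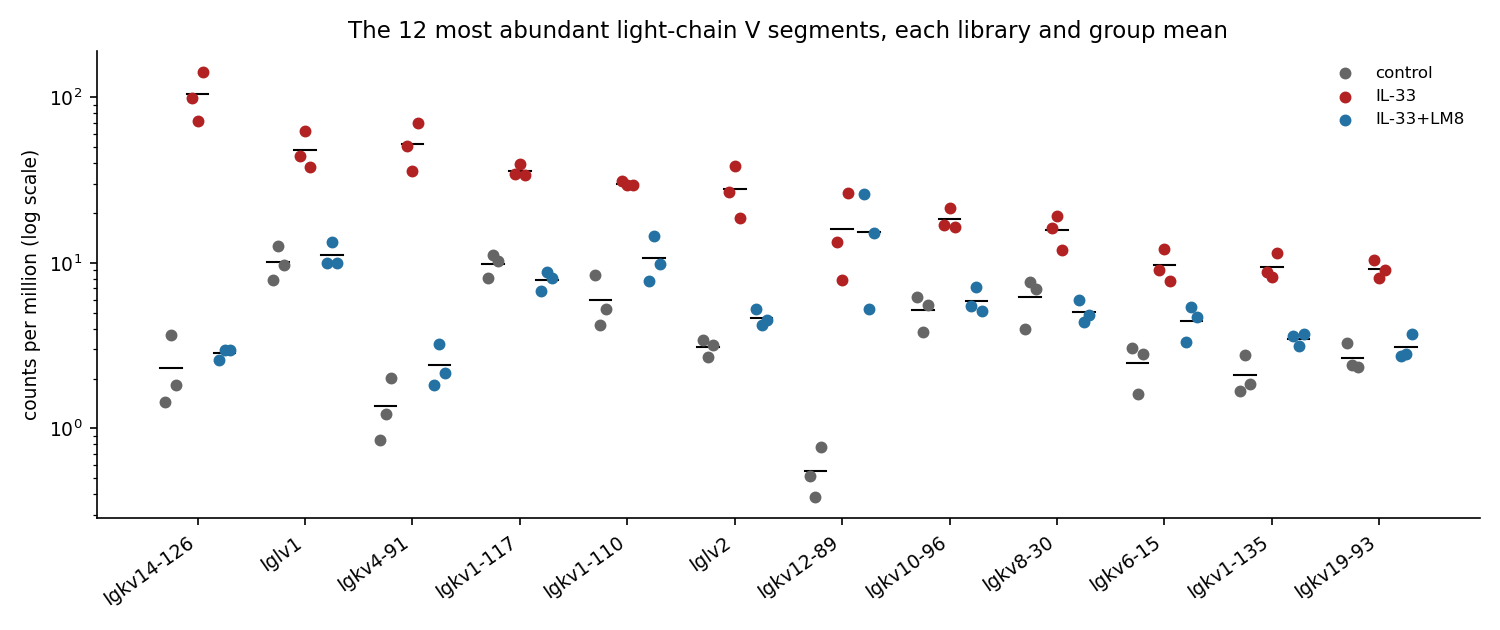
CPM on a log scale for the 12 segments with the highest mean over 9 mice; points are libraries and bars group means. For 11 segments the IL-33 libraries lie above all IL-33+LM8 libraries, and for Igkv12-89 the IL-33 mean of 15.9 and the IL-33+LM8 mean of 15.4 are close, with overlapping libraries.

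The rest of the 12 most abundant segments rose less steeply. All were called higher with IL-33, and *Igkv10-96*, *Igkv8-30*, *Igkv6-15*, *Igkv1-135* and *Igkv19-93* had log2 fold changes between 1.35 and 2.16. *Igkv1-117* had 500, 693 and 759 counts in control and 2291, 2389 and 1827 in IL-33 libraries (log2 fold change 1.88, SE 0.14, adjusted p = 3.22e-05). Its close copy *Igkv1-110* had 523, 264 and 392 counts in control and 2060, 1782 and 1577 in IL-33 libraries (log2 fold change 2.33, SE 0.24, adjusted p = 0.000175). The ratio of *Igkv1-110* to *Igkv1-117* ranged from 0.38 to 1.05 among the controls, but their sum was steadier, at 1023, 957 and 1151 counts, or 13.4% to 13.8% of V counts. The sum was 65.5, 69.3 and 63.3 CPM in the IL-33 mice, 15.8 ± 0.62 (SD, n = 3) in the controls and 18.6 ± 4.39 in the IL-33+LM8 mice.

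Some segments had few or no counts in the control libraries. Of those named here, *Igkv4-69*, *Igkv4-81* and *Igkv2-116* passed the filter only through their level in the IL-33 mice, so that they had to differ, and their values are a description. *Igkv4-69* had 0 counts in every control library and 84, 204 and 0 in the IL-33 mice, and *Igkv4-81* had 0 in every control and 60, 3 and 72. Against a floor of 3 counts per library, their IL-33 means were at least 34.0-fold and 16.7-fold higher. These bounds rest on single mice: they were 13.8 for *Igkv4-69* without IL-33 replicate 2, and 10.4 for *Igkv4-81* without IL-33 replicate 3. A count of 0 allows a share of up to 0.0424% of V counts in the control library with the fewest, counting error only. *Igkv4-69* was seen in 2 of 3 IL-33 mice, overlapped with the controls, and its call did not hold without IL-33 replicate 1 (adjusted p = 0.0653 by edgeR), replicate 2 (0.0774) or any single control (0.0504 to 0.0649). *Igkv4-86*, at 8, 0 and 12 counts in control and 146, 106 and 151 in IL-33 libraries, and *Igkv5-45*, at 0, 0 and 16 against 86, 113 and 40, were also among the 8 largest rises, as was the pseudogene *Igkv2-116* at 0, 0 and 2 against 43, 17 and 64. *Igkv2-116* is 94.4% identical to *Igkv2-109* over the last 250 bases, so its reads may belong to that copy. *Igkv2-109* was itself called higher (log2 fold change 2.14, SE 0.24). The split of reads between *Igkv5-45* and its close copy *Igkv5-43* is uncertain, and their sum was 2.77 ± 1.08 CPM (SD, n = 3) in control and 6.07 ± 1.301 CPM in IL-33 libraries, a much smaller difference than that of *Igkv5-45* alone (19.1-fold in mean FPKM).

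The 18 tested segments that were not called had log2 fold changes from -0.16 to 3.04. For 7 of them every IL-33 library was still above every control. *Igkv16-104* had the lowest value, with 489, 47 and 354 counts in control, 284, 273 and 170 in IL-33 and 82, 80 and 98 in IL-33+LM8 libraries. It held 6.59%, 0.665% and 4.12% of V counts in the controls, so replicates 1 and 3, the libraries with *Rag1*, stood apart from replicate 2. *Igkv6-13* had the same split, with 120, 14 and 88 counts in control and 70, 83 and 44 in IL-33 libraries. *Igkv9-124* did too, with 152, 30 and 141 counts in control, and 227, 177 and 146 in IL-33 libraries, as did *Igkv4-58* with 147, 6 and 67. *Igkv4-58* had a log2 fold change of 2.65 (adjusted p = 0.0589) and was called higher without control replicate 1 (3.79, adjusted p = 0.0311) or IL-33 replicate 2 (3.11, adjusted p = 0.0408). These segments were picked after their values were seen, and the part of the B-lineage or other cells behind *Rag1* in this split was not tested.

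By family, the number before the hyphen in a kappa name, 2 families held a larger share of the kappa counts in every IL-33 library than in every control library. The *Igkv14* family, 5 segments, held 4.14%, 5.97% and 4.32% of kappa V counts in control and 20.95%, 16.04% and 26.2% in IL-33 libraries. The *Igkv4* family, 30 segments, held 11.9%, 16.4% and 14.1% in control and 21.2%, 18.8% and 22.9% in IL-33 libraries. Single segments held much of these shares. *Igkv14-126* alone averaged 19.1% of kappa V counts in IL-33 and 2.29% in control libraries, and *Igkv4-91* 9.62% and 1.33%. The family shares without these segments were not computed, so a gain by the rest of either family is not shown. Most other large families held a smaller share with IL-33, while their levels rose: all 7 tested *Igkv8* segments were called higher, and the family's share was 10.1% ± 2.46 in control and 7.07% ± 1.89 in IL-33 libraries (SD, n = 3), which overlap. The *Igkv6* family went from 11.2% ± 1.42 to 6.46% ± 1.65, with 7 of 9 tested segments called higher. In the IL-33+LM8 mice the *Igkv14* and *Igkv4* families held 4.85% ± 0.96 and 11.8% ± 1.65, and the *Igkv12* family, 9 segments including *Igkv12-89*, held 23.5%, 9.72% and 15.9%, against 3.78% to 7.32% in control libraries.

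**Figure D3:**
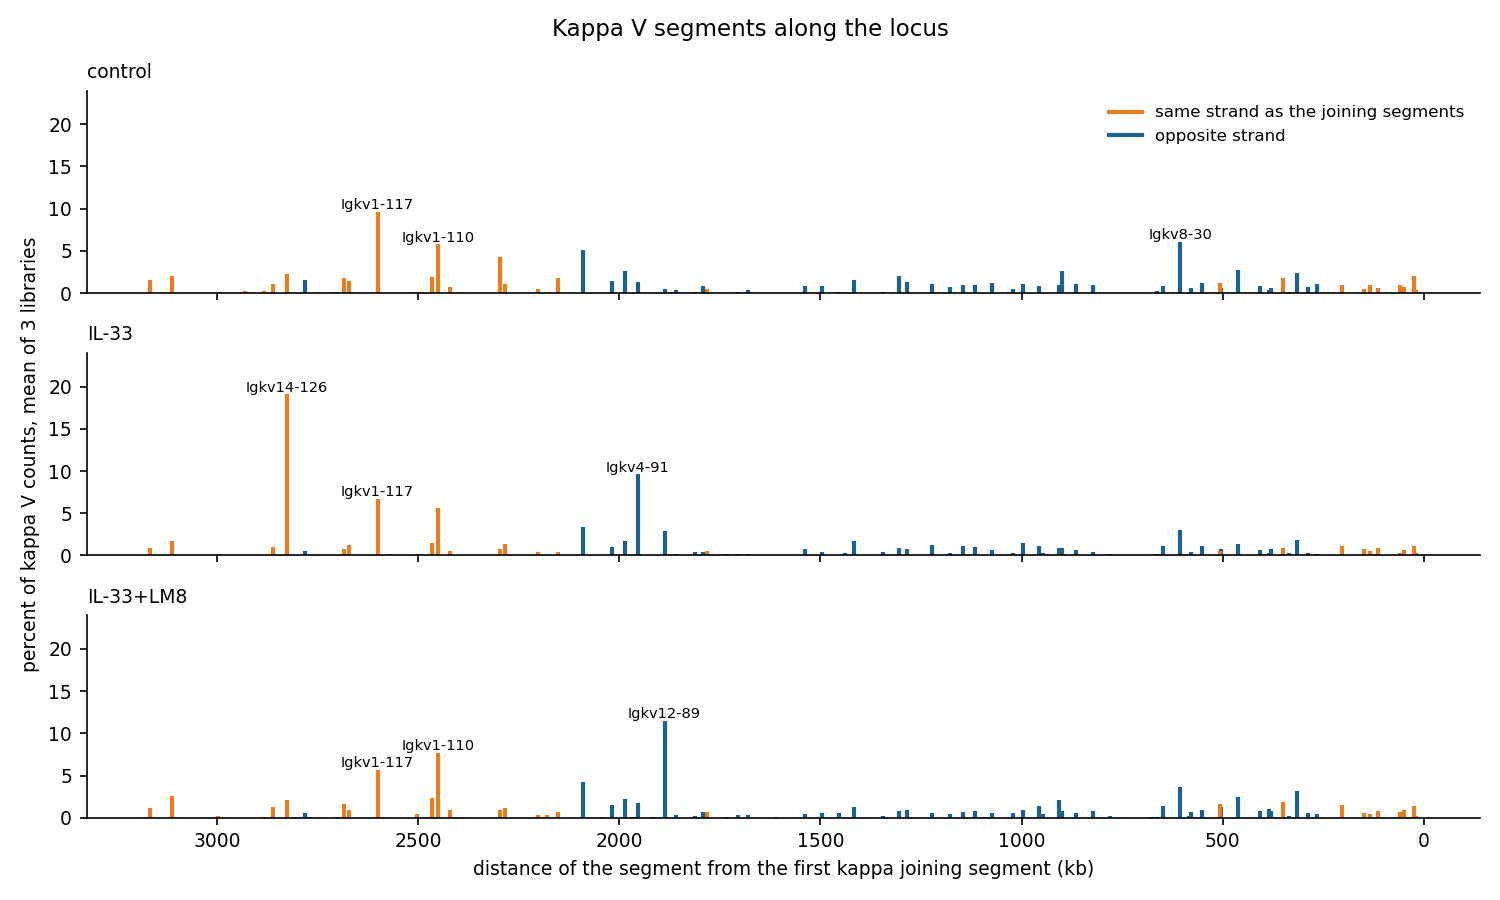
Mean percent of kappa V counts (3 libraries per group) of each kappa segment against its distance from the first joining segment, colored by strand relative to the joining segments; the 3 most abundant of each group are named. Igkv14-126 reaches 19.1% and Igkv4-91 9.62% in the IL-33 group, and Igkv12-89 11.5% in the IL-33+LM8 group.

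The kappa segments spread over a long stretch of the locus, and none of the 3 that led the changes lies next to the joining segments. In the table's own coordinates, *Igkv14-126* ends 2826 kb, *Igkv4-91* 1953 kb and *Igkv12-89* 1887 kb before the first joining segment. Segments over 2000 kb away held 40.6% to 48.6% of kappa counts in control, 46.5% to 49.4% in IL-33 and 33.0% to 42.2% in IL-33+LM8 libraries. *Igkv14-126* is among them and alone averaged 2.29% of kappa counts in control, 19.1% in IL-33 and 2.07% in IL-33+LM8 libraries. The share of far segments without *Igkv14-126* was not computed. Kappa segments on the strand of the joining segments rearrange by deletion and those on the opposite strand by inversion. Opposite-strand segments held 50.04% to 54.6% of kappa counts in control, 48.0% to 50.7% in IL-33 and 53.5% to 63.6% in IL-33+LM8 libraries. Without *Igkv12-89* the last range was 51.7% to 54.6%, and it was 49.8% to 54.2% in control libraries.

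All 3 lambda segments rose with IL-33. *Iglv1* had 490, 787 and 716 counts in control, 2951, 3757 and 2049 in IL-33 and 598, 814 and 897 in IL-33+LM8 libraries. Its log2 fold change was 2.26 (SE 0.24, adjusted p = 0.000172) with IL-33 and -2.14 (SE 0.21, adjusted p = 0.000419) for IL-33+LM8 against IL-33. *Iglv2*, its close copy, had 212, 169 and 235 counts in control, 1772, 2326 and 1004 in IL-33 and 315, 259 and 405 in IL-33+LM8 libraries, and a log2 fold change of 3.18 (SE 0.28, adjusted p = 7.06e-05) with IL-33. *Iglv3*, which shares no 31-base stretch with another segment, had 31, 19 and 42 counts in control, 194, 175 and 93 in IL-33 and 45, 115 and 114 in IL-33+LM8 libraries. It was called higher with IL-33 (log2 fold change 2.46) and was lower in IL-33+LM8 than IL-33 libraries by a call only without IL-33+LM8 replicate 2 (-1.33, adjusted p = 0.0474, against -0.97 and 0.106 with all mice). Lambda segments held 9.88% to 13.8% of V counts in control, 9.02% to 16.96% in IL-33 and 10.5% to 11.6% in IL-33+LM8 libraries, which overlap, and IL-33 replicate 2, the library with the lowest *Igkv14-126* share of its group, had the highest lambda share.

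The second comparison set IL-33+LM8 against IL-33 mice, to ask which segments were lower with the MyD88 inhibitor. It shares the IL-33 mice with the first, so that a segment that was high in them by chance tends to appear in both. Of the 84 tested segments, 61 were called lower, where 3.93% of all genes tested were, and 0 were called higher, where 1.46% of all genes were. The count of higher segments was also 0 at an unadjusted p under 0.05, with DESeq2 and with limma. The median log2 fold change of the tested segments was -1.62, with quartiles of -2.18 and -1.22, against -0.0062 over all genes. By FPKM, every IL-33+LM8 library lay below every IL-33 library for 70 of the 84. Without the 8 segments that passed only through the IL-33 group, 57 of 76 were called lower.

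The largest falls with LM8 were those of *Igkv14-126* and *Igkv4-91*, already given, and of segments with few counts. *Igkv4-58* had 519, 120 and 609 counts in IL-33 and 37, 47 and 79 in IL-33+LM8 libraries (log2 fold change -3.23, SE 0.60, adjusted p = 0.00673). *Igkv4-63* had 128, 204 and 48 in IL-33 and 21, 20 and 16 in IL-33+LM8 libraries (log2 fold change -2.88, SE 0.54, adjusted p = 0.00723). *Igkv4-69* and *Igkv2-116* had at most 4 counts in any IL-33+LM8 library, and both had been tested only through their level in the IL-33 mice. *Igkv3-1*, with 163, 83 and 98 counts in IL-33 and 20, 0 and 33 in IL-33+LM8 libraries, and *Igkv7-33*, with 67, 42 and 73 against 0, 16 and 12, completed the 8 largest. The falls of *Igkv4-69*, *Igkv3-1* and *Igkv7-33* were each no longer called when single mice were left out, with adjusted p-values of up to 0.102, 0.0974 and 0.103. Among abundant segments, *Igkv6-15* had 603, 726 and 419 counts in IL-33 and 198, 333 and 421 in IL-33+LM8 libraries (log2 fold change -1.12, adjusted p = 0.0124), and it missed the minimum fold without IL-33 replicate 2 (-0.93) or IL-33+LM8 replicate 1 (-0.94).

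Of the 23 tested segments not called in this comparison, 12 still had every IL-33+LM8 library below every IL-33 library by FPKM. *Igkv12-89* and *Igkv6-20* were the abundant and the scarce example of segments whose groups overlapped. *Igkv6-20* had 84, 101 and 70 counts in IL-33 and 144, 32 and 95 in IL-33+LM8 libraries, with a log2 fold change of -0.11 (SE 0.51, adjusted p = 0.908). *Igkv12-44*, of the same family as *Igkv12-89*, had 353, 272 and 225 counts in IL-33 and 115, 248 and 243 in IL-33+LM8 libraries, with a log2 fold change of -0.71 (SE 0.29, adjusted p = 0.115), and it was called lower without IL-33+LM8 replicate 2 (-1.03, adjusted p = 0.0252). *Igkv4-70* had the highest value of the tested segments, 0.47 (SE 0.44, adjusted p = 0.484).

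Against control, the IL-33+LM8 mice differed in fewer segments. This comparison shares mice with both others. Of the 84 tested segments, 11 were called higher, where 5.87% of all 16829 genes tested were, and 1 was called lower, where 1.46% of all genes were. Every IL-33+LM8 library lay above every control library for 30 and below for 1. Without the share of all genes that separate in this way, these counts cannot be read as particular to the segments. The median log2 fold change of the tested segments was 0.50, or 0.45 with segments at 0 in the controls set to their bound, against 0.0035 over all genes. The count rested on single libraries: without IL-33+LM8 replicate 2 it was 5 and without replicate 3 it was 7.

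*Igkv12-89* was the clearest of the rises, and of the mean difference of 38.6 CPM in the V sum between these groups it made up 38.5%. This share rested on single libraries, being 61.5% without IL-33+LM8 replicate 2 and 22.8% without replicate 1. *Igkv12-44*, with 39, 72 and 73 counts in control libraries (log2 fold change 1.65, SE 0.36, adjusted p = 0.014), and *Igkv2-112*, with 9, 11 and 14 counts in control and 32, 54 and 37 in IL-33+LM8 libraries (1.82, SE 0.40, adjusted p = 0.0135), also kept their calls without each mouse in turn. *Igkv4-81*, with 0 counts in the controls and 6 in each IL-33+LM8 library, was at least 1.94-fold higher, and it was not called without IL-33+LM8 replicate 2 (adjusted p = 0.0609). *Iglv3* was called at a log2 fold change of 1.50 (adjusted p = 0.033), and *Igkv8-24*, with 34, 34 and 63 counts in control and 66, 160 and 153 in IL-33+LM8 libraries, at 1.48 (adjusted p = 0.0258). *Igkv1-99*, with 10, 4 and 10 against 14, 46 and 30 counts, was called at 1.85 (adjusted p = 0.0475), and *Igkv6-20*, with 26, 24 and 18 against 144, 32 and 95 counts, at 1.93 (adjusted p = 0.042). None of these 4 kept its call without each of the mice: the highest adjusted p was 0.103 for *Iglv3* (without IL-33+LM8 replicate 2), 0.0853 for *Igkv8-24* (without control replicate 1), 0.146 for *Igkv1-99* (without IL-33+LM8 replicate 2) and 0.112 for *Igkv6-20* (without control replicate 3). With the replicate number as a block, *Igkv1-99* also lost its call (log2 fold change 1.72, adjusted p = 0.0745), and *Igkv5-45*, at 2.90 (adjusted p = 0.0781) without the block, was called (3.26, adjusted p = 0.0495), as it was without control replicate 3 (adjusted p = 0.00345). Over the last 250 bases, *Igkv6-20* is 98% identical to *Igkv6-29*, and *Igkv12-44* is 94.8% identical to *Igkv12-41*. Reads can fall on either copy, so the counts of *Igkv6-20* and *Igkv12-44* are uncertain in every comparison.

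The segment called lower was *Igkv5-43*, with 105, 240 and 190 counts in control, 341, 318 and 209 in IL-33 and 77, 60 and 103 in IL-33+LM8 libraries. Its log2 fold change was -1.24 (SE 0.33, adjusted p = 0.0291), and without control replicate 2 it was -0.89 (adjusted p = 0.0805). Leaving out control replicate 3 or any single IL-33+LM8 mouse also ended the call, at adjusted p-values of 0.0503 to 0.0955. Its closest copy, *Igkv5-45*, is 98.8% identical over the last 250 bases and had 0, 0 and 16 counts in control and 44, 28 and 49 in IL-33+LM8 libraries. Summed over both, the counts were 105, 240 and 206 in control and 121, 88 and 152 in IL-33+LM8 libraries, so that the groups overlapped.

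Light chain constant and joining genes moved with the V segments. *Igkc*, the kappa constant region, had 7942, 8171 and 8958 counts in control, 42663, 39976 and 39539 in IL-33 and 9821, 11638 and 15469 in IL-33+LM8 libraries. Kappa V counts per *Igkc* count stayed between 0.75 and 0.85 in all 9 libraries. Of the 12 tested genes of this list, 11 were called higher with IL-33 and 11 lower with LM8 against IL-33, with median log2 fold changes of 2.46 and -1.90. Lambda V counts per count of *Iglc1*, *Iglc2* and *Iglc3* were 0.88 to 1.02 in control, 1.05 to 1.12 in IL-33 and 0.70 to 0.82 in IL-33+LM8 libraries, which do not overlap. *Iglc3* and *Iglc1*, both called lower with LM8, had log2 fold changes of -1.13 (SE 0.15) and -2.01 (SE 0.25), a difference that was not tested. *Iglc4* had at most 7 counts in any library.

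Heavy chain constant genes rose unevenly. *Ighm*, the constant region of IgM, had 4556, 6599 and 5967 counts in control, 85968, 76343 and 73517 in IL-33 and 13209, 13657 and 19261 in IL-33+LM8 libraries (log2 fold changes of 3.92 with IL-33 and -2.59 for IL-33+LM8 against IL-33). *Igha*, of IgA, had log2 fold changes of 1.25 and -1.07, and *Ighd*, of IgD, 1.20 and -0.26. Of the 7 tested genes of this list, 6 were called higher with IL-33 and 6 lower with LM8 against IL-33. *Ighe*, of IgE, had at most 8 counts in any library.

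General B cell genes were called higher with IL-33, and few of them were called lower with LM8. Of 15 B cell markers, 14 were called higher with IL-33, with a median log2 fold change of 1.84, and 2, *Spib* and *Pou2af1*, both B cell transcription regulators, were called lower with LM8 against IL-33, with a median of -0.78. Against control, 10 of the 15 were still called higher in IL-33+LM8 mice. The medians of the V segments and of the B cell genes were not compared by a test.

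Of 13 plasma cell genes, 8 were called higher with IL-33 and 3 lower with LM8 against IL-33, and their median log2 fold changes were 1.27 and -0.52. The 3 were *Jchain*, which joins IgM and IgA into polymers, *Mzb1*, an endoplasmic reticulum cochaperone of antibody assembly, and *Slamf7*. *Jchain* had 3277, 2753 and 3459 counts in control, 10100, 9764 and 8308 in IL-33 and 2714, 3355 and 4228 in IL-33+LM8 libraries. *Sdc1*, *Xbp1* and *Txndc5*, the members of this list with the highest counts in the controls, are also expressed by other lung cells and were not called in either comparison. Against control, 4 of the 13 were called higher in IL-33+LM8 mice and 9 were not called. *Derl3* and *Irf4* were among the 4, with log2 fold changes of 2.16 (SE 0.39) and 2.21 (SE 0.16). *Jchain* and *Mzb1* were among the 9, at 0.04 (SE 0.10) and 0.34 (SE 0.20).

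**Figure D4:**
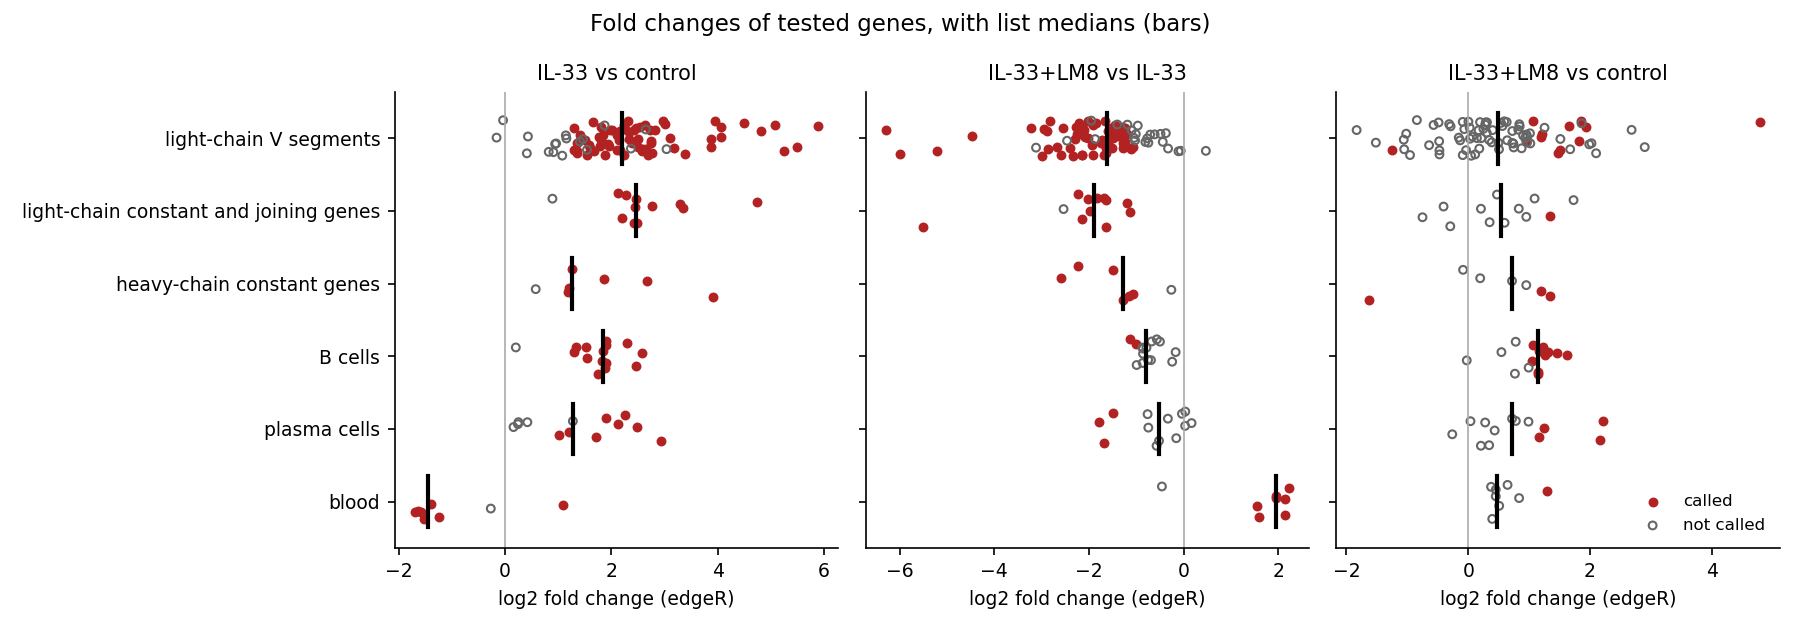
Log2 fold changes of tested genes in 3 comparisons for the light chain V segments and 5 gene lists; filled points were called, open points were not, and bars are medians of the plotted values. Segments at 0 in every control library are drawn at their lower bound, and Igkv4-69 is left out of the right panel; the V segments have medians of 2.20 and -1.62 in the left and middle panels, the blood genes -1.46 and 1.96.

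Genes of germinal centres and of V(D)J recombination were scarce or were not called higher, with 1 exception. *Rgs13* had at most 12 counts in any library. Of the 5 tested germinal centre genes, 1, *Mybl1*, was called higher with IL-33, and *Bcl6* had a log2 fold change of -0.39. Of the genes for recombination and the surrogate light chain, only *Vpreb3* was abundant enough to be tested, and it was called lower with IL-33 (log2 fold change -1.13, SE 0.12). Of 5 tested genes listed for lymphoid stroma, 3 were called higher with IL-33. They were *Cxcl13*, the B cell attractant of follicles, and *Lta* and *Ltb*, which encode cytokines of lymphocytes. *Cxcl13* had 155, 135 and 170 counts in control, 2551, 2624 and 1537 in IL-33 and 405, 1757 and 1537 in IL-33+LM8 libraries. The 2 not called were the chemokine genes *Ccl21a* (log2 fold change -0.53, SE 0.06) and *Ccl19* (0.03, SE 0.47). *Glycam1* and *Madcam1*, markers of high endothelium, had at most 8 and 34 counts.

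The V sum was higher in IL-33+LM8 than in control mice, and so was the sum of blood genes. In the IL-33 mice the V sum was highest, but blood genes were lowest in sum. Summed over 8 genes, mostly of globins, their level was 7859 to 9303 FPKM in control, 2552 to 3200 in IL-33 and 10902 to 12352 in IL-33+LM8 libraries, without overlap between any groups. With IL-33, 6 of 8 were called lower and 1, *Pf4*, higher, and with LM8 against IL-33, 7 of 8 were called higher. The part of blood content in the V segment differences was not tested.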

How the data were processed

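Total RNA of 9 lungs was sequenced in paired ends. The authors deposited 1 table with, for every library, raw counts per gene and FPKM (counts scaled by gene length and library size). The submitters' processing notes name Bowtie 0.12.2, HISAT2 2.0, StringTie 1.3.0 and mm10, without roles; read filters and counting of reads that match several segments are not given in the sources used here. V segments carry junctional and somatic changes and close copies, so alignment can lose or misplace reads. No segment has the coordinates of GENCODE M21 (0 of 121, all of equal length), so the table's build is not settled; GRCm38 positions come from GENCODE, and distances from the table.

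Counts were tested with edgeR 4.0.16 (R 4.3.3, TMM, quasi-likelihood) on the 6 mice of each comparison, for genes averaging 0.5 FPKM or more across the 9 mice and counted in the 6, with Benjamini-Hochberg adjustment. Calls needed an adjusted p below 0.05 and a log2 fold change of 1 or more in either direction. The standard error is the log2 fold change divided by the square root of F. Fold multiples are ratios of mean FPKM. The replicates are the labels' separate lung samples, and p-values measure only the spread between them, which may in part be technical. An exact permutation test of 3 against 3 cannot go below 0.1. No library was a copy of another: within groups their counts differed 24.4 times as much as sampling alone gives, or more.

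Deviations of same-numbered control and IL-33+LM8 libraries from their group means had correlations of 0.35, 0.37 and 0.70 over genes, and the labels give no reason for it. For same-numbered libraries of the other pairs of groups they ranged from -0.49 to 0.37. Libraries of unlike number could correlate as strongly: 0.71 for control replicate 3 and IL-33 replicate 1, and 0.73 for IL-33 replicate 1 and IL-33+LM8 replicate 3. The numbers are therefore not shown to pair the libraries. The block on the replicate number was read for single segments in IL-33+LM8 against control only, as an alternative fit and not as a known pairing. Multiples of 4 made up 31.1% of counts from 1 to 20, against 25% if even, so 1 fragment may add more than 1 count and floors and intervals may be too narrow. No columns of other samples were present.

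Segments named are the 12 most abundant over 9 mice, each library's leading segment, all lambda segments and, per comparison, the 8 largest rises and falls among those called; *Igkv16-104*, *Igkv6-13*, *Igkv9-124* and *Igkv4-70* were named after their values were seen. From gene lists, the constant genes and the most abundant or called genes were named; other genes were chosen after their values were seen. Members and lists were chosen with earlier results of these data known. Tests and the diversity functions were tested on simulated data. Alternatives covered scaling, filters, DESeq2 1.42.0, limma 3.58.1 on log2(FPKM + 1) and log2(FPKM + 0.1), the minimum fold change, a fit of 9 mice, the block and each mouse left out.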

Additional observations from a re-analysis of the deposited data

How the results depend on the processing

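The 66 segments called in IL-33 against control were 62 to 70 under other scalings, filters, tools and fits, and 63 to 67 without single mice. The 61 calls between IL-33+LM8 and IL-33 mice were 49 to 62, and 45 to 55 without single mice. The 12 calls between IL-33+LM8 and control mice were 6 without a filter on low values, 4 with limma at a pseudocount of 1, and 5 to 12 without single mice, so this count depends on the processing; the cause was not tested. With the replicate block the counts were 66, 51 and 13, of which 65, 51 and 11 were among those called without it. In IL-33+LM8 against control, the block changed the calls of *Igkv1-99* and *Igkv5-45* among the segments named.

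The log2 ratio of the V sums, 2.41, -1.99 and 0.41, was 1.90, -1.62 and 0.29 without the 10 most abundant segments, and 1.99, -1.73 and 0.26 without *Igkv14-126*, *Igkv4-91* and *Igkv12-89*, an alternative chosen after seeing the data. Without the leading segment of each library the first was 2.28. The inverse Simpson index averaged 29.0, 17.9 and 27.9 in control, IL-33 and IL-33+LM8 mice, and the exponential of the Shannon entropy 45.3, 36.0 and 47.3.

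Directions that turned were all of segments that were not called. Between IL-33+LM8 and IL-33 mice, leaving out single mice gave log2 fold changes from -0.84 to 0.27 for *Igkv6-20* and from -0.66 to 0.53 for *Igkv12-89*. Between IL-33+LM8 and control mice they were -0.0042 to 0.35 for *Iglv1*, -2.60 to 2.57 for *Igkv2-116*, -0.98 to 0.094 for *Igkv3-1* and -1.09 to 0.59 for *Igkv4-58*, which was 0.20 with limma at a pseudocount of 0.1 and 0.021 with the block. Of the alternatives for single segments, 1212 kept direction and call, 88 lost and 22 gained a call, and 14 turned. Depth limits the scarce segments, since the control libraries held 7068 to 8582 V counts.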
